A study of Arabidopsis thaliana with 21 samples.

Results

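Germinated seeds of Arabidopsis thaliana at the stage of root hair formation (RH) were compared with germinated seeds whose radicle had just come through the endosperm (RP). The members are the 3 arrays titled RH and the 3 arrays titled RP, chosen by those titles, which makes 6 of the 21 arrays of the series, and each array measured 27789 genes. The RH and RP arrays held RNA of germinated seeds of the wild-type cultivar Col-0, with no transgene or treatment named, so hair cells, the rest of the embryo and what remained of the endosperm and seed coat were measured together. Per the labels the seeds lay in the cold for 72 h at 4 °C on wet filter paper and were then kept in constant white light at 22 °C, and 3000 of them were picked under a stereomicroscope for each stage. Each stage had 3 biological replicates, made from seeds pooled over several plants, and the other 5 stages (dry seed, DS; 6 h of imbibition, 6H; testa rupture, TR; greening cotyledons, GC; opened cotyledons, OC) entered only as neighbours and for the estimate of the spread.

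The values are array signals on the log2 scale, normalised with RMA by the authors, and each gene has 1 value per array. A change is the RH mean minus the RP mean on that scale ± the standard error that limma gave it (n = 3 for each stage), so a change of 1 is a 2-fold difference. A gene "rose" or "fell" where the Benjamini-Hochberg adjusted p over all 27789 genes was under 0.05, and it was counted as changed where the change was also at least 2-fold. Stage means are given ± SD (n = 3). Levels under 3.47, the 30th percentile of all values, lie near the signal floor, so that changes reaching into that range may be larger than measured. Signals of different genes come from different probes and are not compared with each other.

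Root hairs are tube-shaped outgrowths of single epidermal cells of the root, and each grows only at its tip. In Arabidopsis a network of MYB, bHLH and homeodomain factors sets which files of epidermal cells can form hairs, the bHLH factors RHD6 and RSL1 start the hair programme, and RSL4, RSL2 and the LRL factors act after them to drive growth. Growth itself needs a polar patch of ROP GTPases, reactive oxygen made by the NADPH oxidase RHD2 (RBOHC), targeted secretion, and a wall built of cellulose, xyloglucan, extensins and other proline-rich proteins. In the same period a seedling lives on the oil and protein of its seed and assembles the chloroplasts of its cotyledons.

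Limma counted 1014 genes as higher at RH and 483 as lower, 3.65% and 1.74% of all genes. At the adjusted p alone 3185 genes rose and 3304 fell, 11.5% and 11.9%, and the median change of all genes was -0.02. The largest changes were mostly rises: 97 rises and 15 falls reached 8-fold, and 40 rises and 1 fall reached 16-fold. The 3 RH arrays lay wholly above or wholly below the 3 RP arrays for 1496 of the 1497 changed genes, and for 42.4% of all genes. The median SD between the 3 arrays of a stage was 0.12 at RH and 0.13 at RP. Pearson correlations across genes, which are not independent replicates, ran from 0.993 to 0.995 among RH arrays, from 0.991 to 0.994 among RP arrays and from 0.962 to 0.968 between the stages. The steps on either side held fewer changed genes: 650 rises and 213 falls at RP relative to TR (2.34% and 0.766%), and 723 rises and 270 falls at GC relative to RH (2.6% and 0.972%). Each of these steps shares 1 set of arrays with the step from RP to RH.

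**Figure D1:**
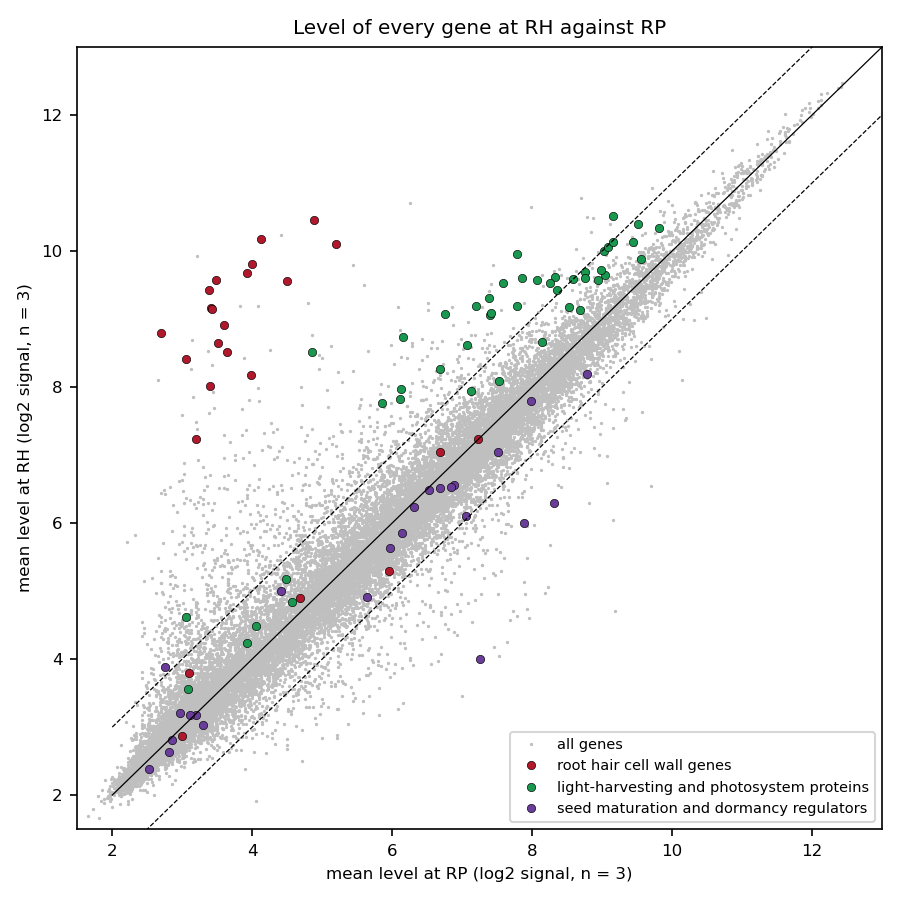
Mean level of each of the 27789 genes at RH (vertical axis, log2 signal, n = 3) against its mean level at RP (horizontal axis, log2 signal, n = 3). Grey points are all genes, and coloured points are members of the lists of root hair cell wall genes, photosynthesis genes, and seed maturation and dormancy regulators. Dashed lines mark a 2-fold difference. Of the cell wall genes 18 form a group far above the diagonal, and the 3 regulators below the lower dashed line are ABI3, ABI4 and RGL2.

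Among the largest rises were many genes of the root hair wall: 9 of the 12 largest belong to the root hair lists. Those lists were written with earlier results of these data known, so the count is a description and not a test. The largest of all was that of AT5G57625, with 9.96, 9.89 and 9.93 at RH and 2.91, 3.25 and 3.46 at RP, a change of 6.72 ± 0.15 (adjusted p = 5.1e-17). It was followed by the extensin genes EXT12 (AT4G13390) and EXT6 (AT2G24980), the xyloglucan endotransglucosylase gene XTH13 (AT5G57540) and the root hair specific gene RHS13 (AT4G02270), each at least 65.8-fold higher at RH. The laccase gene LAC7 (AT3G09220) rose by 5.82 ± 0.22 and was outside the lists. AT4G26010 rose by 5.56 ± 0.15, and it had been entered in the root hair cell wall list under a peroxidase name that the reference table does not give to this locus, so it was left out of the counts. For 6 of the 12 the RP mean was under 3.47.

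The largest fall was that of AT1G29080, with 4.1, 4.85 and 5.19 at RH and 8.96, 9.21 and 9.38 at RP. Its change was -4.47 ± 0.23 (adjusted p = 2.1e-11), and its 3 RH values spread over more than a unit while all lay below the RP values. AT1G02620 fell by 3.55 ± 0.18, GASA6 (AT1G74670), a gene that gibberellin induces, by 3.49 ± 0.19 and the early nodulin-like gene ENODL9 (AT3G20570) by 3.39 ± 0.14. Also among the 12 largest falls were the lipase gene MPL1 (AT5G14180, change -3.28 ± 0.15), the seed maturation factor gene ABI3 (AT3G24650, -3.25 ± 0.13), the expansin gene EXPA2 (AT5G05290, -3.16 ± 0.35) and the loci AT1G65090 (-3.34 ± 0.36), AT3G02480 (-3.22 ± 0.47), AT5G55410 (-3.20 ± 0.24), AT1G29520 (-3.17 ± 0.20) and AT5G66780 (-3.13 ± 0.38). Of these 12 genes 1 ended under 3.47 at RH.

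Of the 24 genes in the root hair cell wall list 19 rose, 18 of them at least 2-fold and 1 fell, which leaves 4 short of the threshold. Their median change was 5.11, and that over all genes -0.02. Over all genes 11.5% rose, 3.65% rose at least 2-fold and 11.9% fell. The extensin gene EXT12 had 9.62, 9.56 and 9.53 at RH and 3.57, 3.42 and 3.43 at RP. XTH13 had 8.77, 8.76 and 8.84 at RH and 3.03, 2.72 and 2.36 at RP. For both genes the RH arrays lay close together and more than 5 units above every RP array. Extensins cross-link into a network in the wall, and the products of XTH genes cut and rejoin the xyloglucan that ties cellulose fibrils together. XTH12 (9.68 ± 0.03 at RH, 3.93 ± 0.23 at RP) and XTH14 (9.16 ± 0.09 at RH, 3.41 ± 0.16 at RP) are close relatives of XTH13, and probe sets of such relatives can share signal, as can those of EXT6, EXT12 and EXT13. In bulk samples such as these, more hair cells and more RNA per hair cell cannot be told apart.

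The alpha-expansins of root hairs loosen the wall at the growing tip. EXPA7 (AT1G12560) had 8.17, 8.09 and 8.27 at RH and 4.34, 4.00 and 3.59 at RP, and EXPA18 (AT1G62980) had 8.43, 8.49 and 8.61 at RH and 3.74, 3.98 and 3.20 at RP. No RH value of either gene overlapped an RP value, and the changes were 4.2 ± 0.18 (adjusted p = 1.3e-12) and 4.87 ± 0.20 (adjusted p = 4.1e-13). Another expansin gene of the list, EXPA17 (AT4G01630), fell by 0.68 ± 0.21. LRX1 (AT1G12040), a leucine-rich repeat extensin needed for hair shape, had 9.60, 9.56 and 9.53 at RH and 4.73, 4.82 and 3.93 at RP, a rise of 5.07 ± 0.17. Its paralog LRX2 (AT1G62440) had a change of 0.21 ± 0.25 (adjusted p = 0.65), and the test of the difference between the paralogs was not made.

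The proline-rich protein genes PRP1 (AT1G54970) and PRP3 (AT3G62680) rose by 5.82 ± 0.17 and 5.31 ± 0.14. Arabinogalactan protein gene AGP3 (AT4G40090) rose by 4.90 ± 0.19, MOP10 (AT5G05500) by 5.14 ± 0.19 and XTH26 (AT4G28850) by 4.60 ± 0.13. Among the genes named root hair specific, RHS19 (AT5G67400) rose by 5.58 ± 0.17, RHS18 (AT5G22410) by 5.36 ± 0.16 and RHS12 (AT3G10710) by 4.04 ± 0.20, whereas RHS8 (AT1G63450), for an enzyme that acts on xyloglucan, rose by 0.71 ± 0.21 to a level of 3.80. The genes of cellulose synthase-like proteins that lay down hair wall glucan gave these values: CSLD3 (AT3G03050) had 7.14, 7.26 and 7.3 at RH and 7.10, 7.22 and 7.38 at RP, a change of 0.00 ± 0.15 (adjusted p = 1), and CSLD2 (AT5G16910) had a change of 0.36 ± 0.17 (adjusted p = 0.13). ATCSLB05 (AT4G15290), at 2.87 ± 0.27 at RH and 3.0 ± 0.25 at RP, was near the floor at both stages. The fall of EXPA17 did not pass in the fits that left out RH replicate 2 or 3 or RP replicate 2 or 3 (changes of -0.66 to -0.55, adjusted p from 0.063 to 0.11), nor did the rise of RHS8 without RH replicate 3 (0.57, adjusted p = 0.097) or RP replicate 3 (0.46, adjusted p = 0.14), while CSLD2 passed without RP replicate 3 (0.52, adjusted p = 0.04). The list split into 18 genes with rises of 4.04 or more and 6 genes with changes between -0.68 and 0.71.

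**Figure D2:**
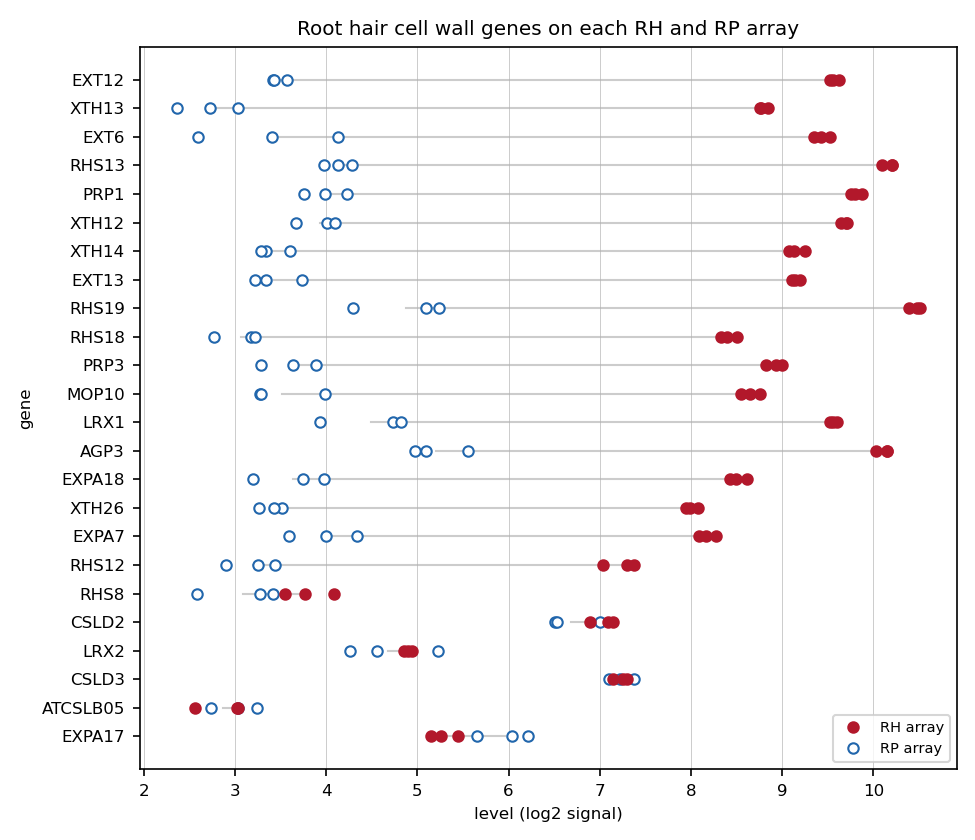
Level on each array (log2 signal, horizontal axis) of the 24 root hair cell wall genes, 1 gene per row, sorted by change. Filled circles are the 3 RH arrays and open circles the 3 RP arrays. In the upper 18 rows the RH circles lie close together, at least 3 units to the right of every RP circle, and in the lower 6 rows the stages lie near each other.

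Genes for the machinery of tip growth rose too. Of 36 genes 19 rose, 16 at least 2-fold, while 0 fell and 17 did not pass (median change 0.79). Among all genes 11.5% rose, 3.65% at least 2-fold, and 11.9% fell. MRH6 (AT2G03720), found through mutants of root hair form, had 6.96, 6.32 and 6.3 at RH and 2.88, 3.0 and 2.6 at RP, a rise of 3.70 ± 0.21. SHV2 (AT5G49270), also called COBL9 and encoding a COBRA-like protein of the cell surface, had 7.10, 7.09 and 7.06 at RH and 4.32, 4.19 and 3.92 at RP, a rise of 2.94 ± 0.17. For both genes all RH arrays lay above all RP arrays. The syntaxin gene SYP123 (AT4G03330), whose product serves vesicle fusion in root hairs, rose by 2.59 ± 0.19, and COW1 (AT4G34580), for a phosphatidylinositol transfer protein, by 2.36 ± 0.17. The proton pump gene HA7 (AT3G60330, AHA7) rose by 2.32 ± 0.15 and the kinase gene PIP5K3 (AT2G26420), which makes a membrane lipid of the tip, by 1.28 ± 0.19.

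Receptor kinase genes of the list rose as well: AT5G61350 by 3.11 ± 0.20, PERK13 (AT1G70460), a brake on hair growth, by 2.71 ± 0.21 and MRH1 (AT4G18640) by 1.57 ± 0.15. RHD2 (AT5G51060), the gene of the NADPH oxidase RBOHC, had 6.5, 6.18 and 6.43 at RH and 5.09, 5.56 and 5.41 at RP. These groups did not overlap, and the rise was 1.02 ± 0.19 (adjusted p = 0.00051). ROPGEF4 (AT2G45890), for an activator of ROP GTPases, rose by 1.34 ± 0.22, and ROPGEF3 (AT4G00460), for the activator that marks the site of the future hair, had a change of 0.66 ± 0.25 (adjusted p = 0.063). The further rises were those of RSH3 (AT1G16440, 2.0 ± 0.18), RSH2 (AT1G12950, 1.59 ± 0.13), RHS16 (AT4G29180, 1.27 ± 0.14), RHS17 (AT4G38390, 1.12 ± 0.17), RHS6 (AT1G51880, 0.94 ± 0.27), the kinase genes IRE (AT5G62310, 1.02 ± 0.16) and AGC2-1 (AT3G25250, 0.60 ± 0.18, OXI1) and BST1 (AT5G65090, 0.92 ± 0.26). RHS6 did not pass without RH replicate 1 (0.70, adjusted p = 0.1) or RP replicate 3 (0.86, adjusted p = 0.061), and AGC2-1 did not pass without RH replicate 1 (0.41, adjusted p = 0.14) or RP replicate 2 (0.45, adjusted p = 0.12). BST1 did not pass after a further quantile normalization (0.80, adjusted p = 0.069).

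Several genes of the same list did not pass. The GTPase gene ROP2 (AT1G20090) had a change of 0.32 ± 0.15, its regulator SCN1 (AT3G07880) 0.27 ± 0.13, the receptor kinase gene FER (AT3G51550) -0.33 ± 0.14 and the potassium channel gene KT1 (AT2G26650, AKT1) -0.39 ± 0.15. The actin genes ACT2 (AT3G18780), ACT7 (AT5G09810) and ACT8 (AT1G49240) had changes of -0.02 ± 0.09, -0.19 ± 0.10 and 0.10 ± 0.10.

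Of 18 factors of root hair patterning and transcription 3 rose, 3 fell and 12 did not pass (median change -0.15). The shares of all genes that rose and fell were 11.5% and 11.9%. RSL4 (AT1G27740), the bHLH factor that drives hair growth, had 6.63, 6.27 and 6.70 at RH and 4.02, 3.88 and 4.34 at RP, and LRL3 (AT5G58010), another bHLH factor, had 6.58, 6.27 and 6.76 at RH and 3.38, 3.61 and 3.07 at RP. The RH arrays lay above the RP arrays for both, and the rises were 2.45 ± 0.20 (adjusted p = 1.9e-08) and 3.18 ± 0.16 (adjusted p = 1.3e-11). LRL2 (AT4G30980) rose by 0.49 ± 0.18, a call that was lost when any 1 of the 6 arrays was left out (changes of 0.45 to 0.54, adjusted p from 0.069 to 0.14), while LRL1 (AT2G24260) had a change of 0.14 ± 0.13 (adjusted p = 0.53). RHD6 (AT1G66470), which acts before RSL4, had 5.8, 5.70 and 5.78 at RH and 5.76, 5.97 and 6.04 at RP, a change of -0.17 ± 0.22 (adjusted p = 0.69). Its partner RSL1 (AT5G37800) had a change of 0.04 ± 0.27, and RSL2 (AT4G33880) one of 0.60 ± 0.23 (adjusted p = 0.066), both from RP levels under 3.47.

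Among the genes of epidermal patterning, the homeodomain gene GL2 (AT1G79840) of non-hair cells had a change of -0.16 ± 0.15, its MYB activator MYB66 (AT5G14750, WER) -0.38 ± 0.20 and the mobile repressor CPC (AT2G46410) -0.36 ± 0.15. None of these passed, nor did GL3 (AT5G41315, -0.13 ± 0.21), EGL3 (AT1G63650, -0.24 ± 0.15), TTG1 (AT5G24520, -0.02 ± 0.11), MYB23 (AT5G40330, 0.10 ± 0.26) or JKD (AT5G03150, -0.18 ± 0.13). 3 genes fell: ETC1 (AT1G01380), a relative of CPC, had 6.89, 7.66 and 7.38 at RH and 8.90, 9.05 and 8.97 at RP, a fall of 1.66 ± 0.20, TRY (AT5G53200), another relative, fell by 0.71 ± 0.24, and SUB (AT1G11130, SCM), for a receptor kinase of the pattern, by 0.74 ± 0.16. TRY kept its call without RH replicate 3 and lost it without any 1 of the other 5 arrays (changes of -0.73 to -0.63, adjusted p from 0.07 to 0.12).

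**Figure D3:**
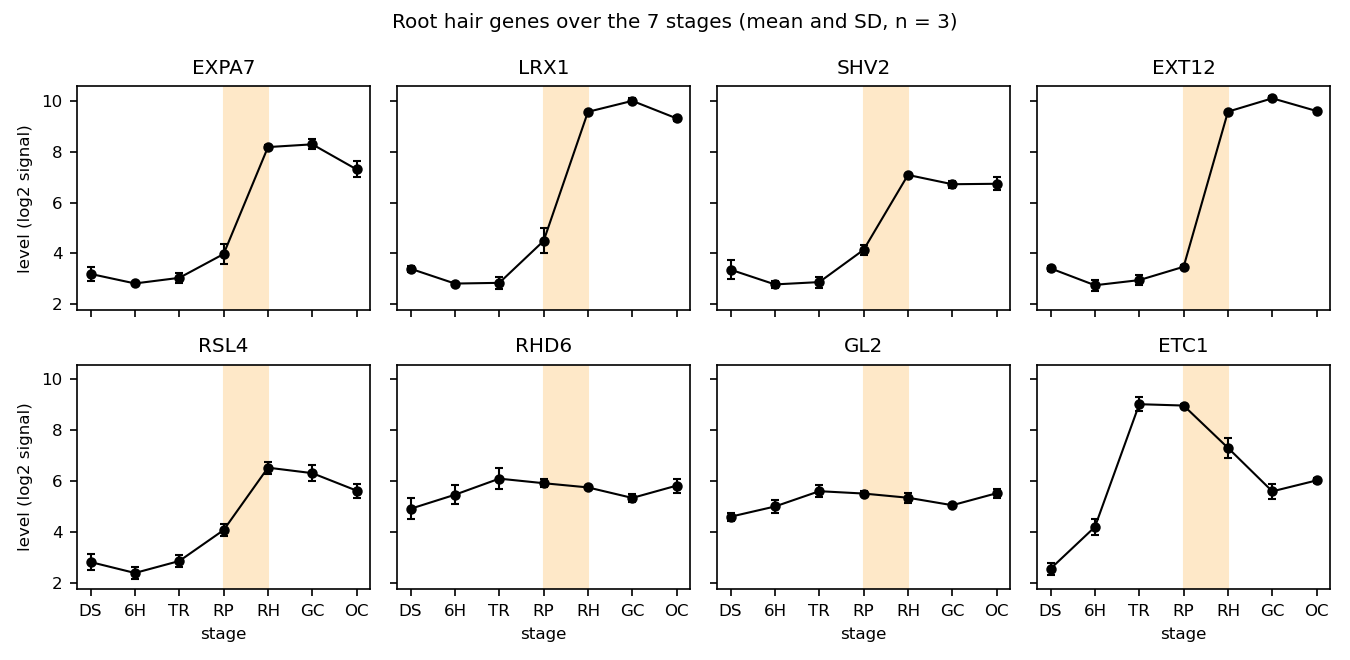
Mean level over the 7 stages (log2 signal, n = 3, error bars SD) of 8 root hair genes, from dry seed (DS) to opened cotyledons (OC), with the step from RP to RH shaded. EXPA7, LRX1, SHV2 and EXT12 stay low up to RP and stand high from RH on, RSL4 is higher at RH than at RP, RHD6 and GL2 are nearly level over the step, and ETC1 is lower at RH than at RP.

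Whether the changes of the step differed from those of its neighbours was tested in the same fit, as the change at this step less the change at the step before or after it. Of the 78 genes in the 3 root hair lists 30 had a higher change from RP to RH than from TR to RP, against 2.42% of all genes. For 35 the change was higher than from RH to GC, against 4.8% of all genes. As the lists were written with earlier results of these data known, these counts describe the lists and do not test them. EXPA7 changed by 4.2 at this step, by 0.94 at the one from TR to RP and by 0.11 at the one from RH to GC, and the differences were 3.27 ± 0.31 (adjusted p = 9.2e-07) and 4.09 ± 0.31 (adjusted p = 3e-08). For RSL4 these changes were 2.45, 1.22 and -0.22, with differences of 1.24 ± 0.35 (adjusted p = 0.048) and 2.67 ± 0.35 (adjusted p = 3.4e-05). A lower change than before or after was called for 2 and 3 of the 78 genes, against 2.3% and 4.48% of all genes. In the cell wall list 18 and 18 of 24 genes had the higher change at this step, in the machinery list 10 and 14 of 36, and among the patterning and transcription factors 2 and 3 of 18.

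Other genes of wall-loosening families fell more often than they rose, and the tissue in which they fell was not tested. Of 34 expansins, XTHs and mannanases outside the root hair list 11 fell, 7 at least 2-fold, while 4 rose and 19 did not pass (median change -0.15). Among all genes 11.9% fell, 1.74% at least 2-fold, and 11.5% rose. EXPA2, an expansin of germinating seeds, had 6.11, 6.63 and 6.89 at RH and 9.60, 9.76 and 9.74 at RP, a fall of 3.16 ± 0.35. XTH15 (AT4G14130) had 5.96, 5.88 and 6.29 at RH and 9.01, 9.24 and 9.23 at RP, a fall of 3.12 ± 0.22. In neither gene did the stages overlap. EXPA8 (AT2G40610) fell by 2.44 ± 0.17, whereas XTH20 (AT5G48070) rose by 2.27 ± 0.22 from a level under 3.47 and the beta-expansin gene EXPB3 (AT4G28250) by 1.48 ± 0.20. EXPA11 (AT1G20190, 0.48 ± 0.19, adjusted p = 0.072) and XTH18 (AT4G30280, -0.43 ± 0.16, adjusted p = 0.065) were among those that did not pass. For primary wall cellulose and tubulins 2 of 25 genes rose, 2 fell and 21 did not pass, and no change there was as large as 2-fold. Of all 27789 genes 21300 did not pass.

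Genes of the Casparian strip, a barrier in the root endodermis, rose. The 5 CASP genes, whose products form the scaffold of the strip, all rose at least 2-fold, by 1.1 to 1.78, against 3.65% of all genes. Their median change was 1.42 at this step, -0.11 from TR to RP and 2.14 from RH to GC. CASP1 (AT2G36100) had 5.86, 5.55 and 5.75 at RH and 3.81, 4.08 and 3.94 at RP, a rise of 1.78 ± 0.16, and CASP5 (AT5G15290) rose by 1.51 ± 0.16 from a level under 3.47. PER64 (AT5G42180), for the peroxidase that lignifies the strip, rose by 1.49 ± 0.15. The suberin genes of the list, which act later in the same tissue, included GPAT5 (AT3G11430), which was near the floor at both stages with 2.78 ± 0.13 at RH and 2.87 ± 0.19 at RP. Over the whole list of 26 genes 8 rose and 2 fell, against 11.5% and 11.9% of all genes. The larger fall was that of the fatty acid elongase gene KCS2 (AT1G04220, -1.25 ± 0.24).

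In the list of xylem and phloem 7 of 26 genes rose and 6 fell, against 11.5% and 11.9% of all genes. The rises were led by BFN1 (AT1G11190, 2.1 ± 0.17) and RNS3 (AT1G26820, 1.11 ± 0.34), nucleases of dying cells, and by the laccase gene LAC17 (AT5G60020, 1.61 ± 0.18), which serves lignin formation. The falls were led by SEOR1 (AT3G01680, -2.11 ± 0.15), for a protein of phloem sieve elements, AT4G39810 (-1.81 ± 0.17) and MYB46 (AT5G12870, -1.25 ± 0.17), a switch of secondary wall formation. RNS3 did not pass without RH replicate 2 or 3 or RP replicate 1 or 3 (changes of 1.02 to 1.08, adjusted p from 0.062 to 0.079). SEOR1 had 3.68, 4.09 and 4.01 at RH and 6.17, 5.91 and 6.02 at RP, with no overlap. Of 20 factors of the root meristem and cap 2 rose, 2 fell and 16 did not pass, and of all 27789 genes 21300 did not pass. Among the 16 were the cap genes SMB (AT1G79580, -0.16 ± 0.18), FEZ (AT1G26870, 0.05 ± 0.15), NAC015 (AT1G33280, BRN1, -0.37 ± 0.31) and NAC070 (AT4G10350, BRN2, 0.45 ± 0.22). The one member to change at least 2-fold was UPB1 (AT2G47270), a bHLH factor that controls peroxidase genes where root cells stop dividing. It had 7.07, 7.41 and 7.41 at RH and 5.04, 4.77 and 4.53 at RP, a rise of 2.52 ± 0.17 (adjusted p = 7.8e-10).

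Transporters of root uptake rose for some nutrients. Of 43 genes 8 rose, 5 at least 2-fold, while 5 fell and 30 did not pass (median change 0.10). Among all genes 11.5% rose, 3.65% at least 2-fold, and 11.9% fell. PHT1;1 (AT5G43350), a phosphate transporter of the root surface, had 8.27, 8.56 and 8.50 at RH and 6.31, 6.31 and 5.77 at RP, a rise of 2.32 ± 0.24. The stages were apart by more than a unit at their nearest values. The iron transporter gene IRT2 (AT4G19680) rose by 3.50 ± 0.15 and the ammonium transporter gene AMT1;3 (AT3G24300) by 2.47 ± 0.16, both from RP levels under 3.47. The ferric reductase gene FRO2 (AT1G01580) fell by 1.33 ± 0.23 and the amino acid permease gene AAP1 (AT1G58360) by 1.0 ± 0.10. Among aquaporins 10 of 22 rose and 0 fell (median 0.30), and the largest rises were in the vacuolar membrane group: TIP2 (AT3G26520, TIP1;2) by 1.96 ± 0.16, TIP4;1 (AT2G25810) by 1.51 ± 0.13 and DELTA-TIP (AT3G16240) by 1.30 ± 0.14.

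Cytokinin response genes rose. Of 30 cytokinin and brassinosteroid genes 12 rose and 3 fell, against 11.5% and 11.9% of all genes. In this list 8 of the 9 type-A response regulators, which cytokinin induces and which damp its signal, rose (7 at least 2-fold, median 1.45). Over all genes 3.65% rose at least 2-fold. RR16 (AT2G40670, ARR16) had 6.42, 6.24 and 6.44 at RH and 4.57, 3.42 and 3.77 at RP, a rise of 2.45 ± 0.24. Its stages did not overlap. RR5 (AT3G48100, ARR5) rose by 1.95 ± 0.28 and ARR6 (AT5G62920) by 1.57 ± 0.19, and the receptor gene WOL (AT2G01830), named after its values were seen, by 0.82 ± 0.12.

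Of 28 auxin genes 9 passed upwards and 2 downwards, against 11.5% and 11.9% of all genes. The auxin-induced conjugating enzyme gene GH3.3 (AT2G23170) rose by 1.98 ± 0.20, the influx carrier gene LAX3 (AT1G77690) by 1.67 ± 0.20 and the repressor gene AXR3 (AT1G04250, IAA17) by 1.55 ± 0.15. In the ethylene and jasmonate list 5 of 34 rose and 3 fell. EFE (AT1G05010), for an ACC oxidase that makes ethylene, had 7.11, 6.94 and 6.99 at RH and 5.21, 4.70 and 4.97 at RP, a rise of 2.05 ± 0.17. AOS (AT5G42650), of jasmonate synthesis, rose by 1.51 ± 0.17, and the apical hook gene HLS1 (AT4G37580) fell by 1.08 ± 0.16. For EFE the RH and RP arrays did not overlap.

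Gibberellin genes, 31 in all, gave 5 rises and 6 falls (median 0.03), while 11.5% of all genes rose and 11.9% fell. GASA6 had 4.19, 4.13 and 3.79 at RH and 7.32, 7.42 and 7.85 at RP, a fall of 3.49 ± 0.19. The DELLA genes, whose products hold back gibberellin responses, fell in 3 of 5 cases, and RGL3 (AT5G17490) fell by 1.55 ± 0.13. The synthesis gene CYP88A3 (AT1G05160, KAO1) fell by 1.04 ± 0.17, while the catabolic gene GA2OX2 (AT1G30040) rose by 1.29 ± 0.21 and the receptor gene GID1B (AT3G63010) by 1.07 ± 0.16. GA3OX1 (AT1G15550), for a late step of synthesis, had a change of 0.30 ± 0.18 (adjusted p = 0.26). Of 35 abscisic acid genes 8 rose and 3 fell, none by as much as 2-fold, with ABF2 (AT1G45249) at 0.40 ± 0.15 and CYP707A2 (AT2G29090) at -0.62 ± 0.25 among those that did not pass. ABF2 passed without RP replicate 3 (0.50, adjusted p = 0.039).

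Photosynthesis genes rose together. Of 45 genes of light-harvesting and photosystem proteins 39 rose, 23 at least 2-fold, while 0 fell and 6 did not pass (median change 1.0). The shares of all genes were 11.5% for rises, 3.65% for rises of at least 2-fold and 11.9% for falls. LHCB2.2 (AT2G05070), an antenna protein gene of photosystem II, had 8.40, 8.47 and 8.66 at RH and 5.45, 4.76 and 4.38 at RP, a rise of 3.65 ± 0.22 (adjusted p = 2.5e-10). PSBQ-2 (AT4G05180), of the oxygen-evolving complex, rose by 2.58 ± 0.20, and the plastocyanin gene PETE1 (AT1G76100) by 2.32 ± 0.15. All 3 RH arrays of LHCB2.2 lay above all RP arrays. The subunits of photosystem I rose in 11 of 11 cases (median 1.51), those of photosystem II in 9 of 10 (median 0.76) and the antenna proteins in 14 of 18 (median 1.46). The step was not the only one at which they moved: the median of the list was 1.39 from TR to RP and 0.58 from RH to GC, and 2 members had a higher change and 1 a lower one at this step than at the one before.

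Of 24 genes of carbon fixation and photorespiration 17 rose and 0 fell (median 0.70). The carbonic anhydrase gene CA2 (AT5G14740) had 8.20, 7.39 and 7.44 at RH and 4.03, 4.06 and 3.46 at RP, a rise of 3.83 ± 0.22. CP12-2 (AT3G62410), a regulator of the Calvin cycle, rose by 2.01 ± 0.19, and HPR (AT1G68010), of photorespiration, by 1.2 ± 0.14, while the Rubisco small subunit gene RBCS1B (AT5G38430) had 0.70 ± 0.27 (adjusted p = 0.068). For CA2 the nearest values of the stages were more than 3 units apart. Chlorophyll synthesis had 22 of 25 genes up and 0 down (median 0.67), all but 2 by less than 2-fold. PORA (AT5G54190), a light-dependent protochlorophyllide oxidoreductase best known from dark-grown seedlings, had the largest change, with 8.52, 8.51 and 8.23 at RH and 4.78, 5.06 and 5.17 at RP and a rise of 3.41 ± 0.13. The other was HEME1 (AT3G14930), which rose by 1.01 ± 0.11. Of 94 loci of the chloroplast genome 11 rose and 0 fell (median 0.14), and the rises were near the 11.5% of all genes. Of 100 loci of the mitochondrial genome 0 rose and 31 fell (median -0.23), against 11.9% of all genes falling. None of these changes was as large as 2-fold.

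Most genes of the flavonoid pathway rose, with 18 of 24 genes up, 15 of them at least 2-fold, and 0 down (median 1.38). The shares of all genes were 11.5% for rises, 3.65% for rises of at least 2-fold and 11.9% for falls. LDOX (AT4G22880), of the anthocyanin branch, had 8.23, 8.0 and 7.55 at RH and 4.1, 3.32 and 2.90 at RP, and DFR (AT5G42800), the step before it, had 6.78, 6.36 and 5.99 at RH and 3.41, 3.46 and 2.91 at RP. In both every RH array lay above every RP array, and they rose by 4.49 ± 0.24 and 3.12 ± 0.19. PAL1 (AT2G37040), which opens the phenylpropanoid pathway, rose by 3.31 ± 0.16. BAN (AT1G61720), the gene of the proanthocyanidin branch in the seed coat, stayed near the floor (2.72 ± 0.07 at RH, 2.80 ± 0.12 at RP), and UGT78D2 (AT5G17050, 0.55 ± 0.20) and MYB111 (AT5G49330, 0.38 ± 0.16) did not pass. The change from RP to RH was higher than that at the step before for 9 members, against 2.42% of all genes. It was higher than that at the step after for 9, against 4.8% of all genes.

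**Figure D4:**
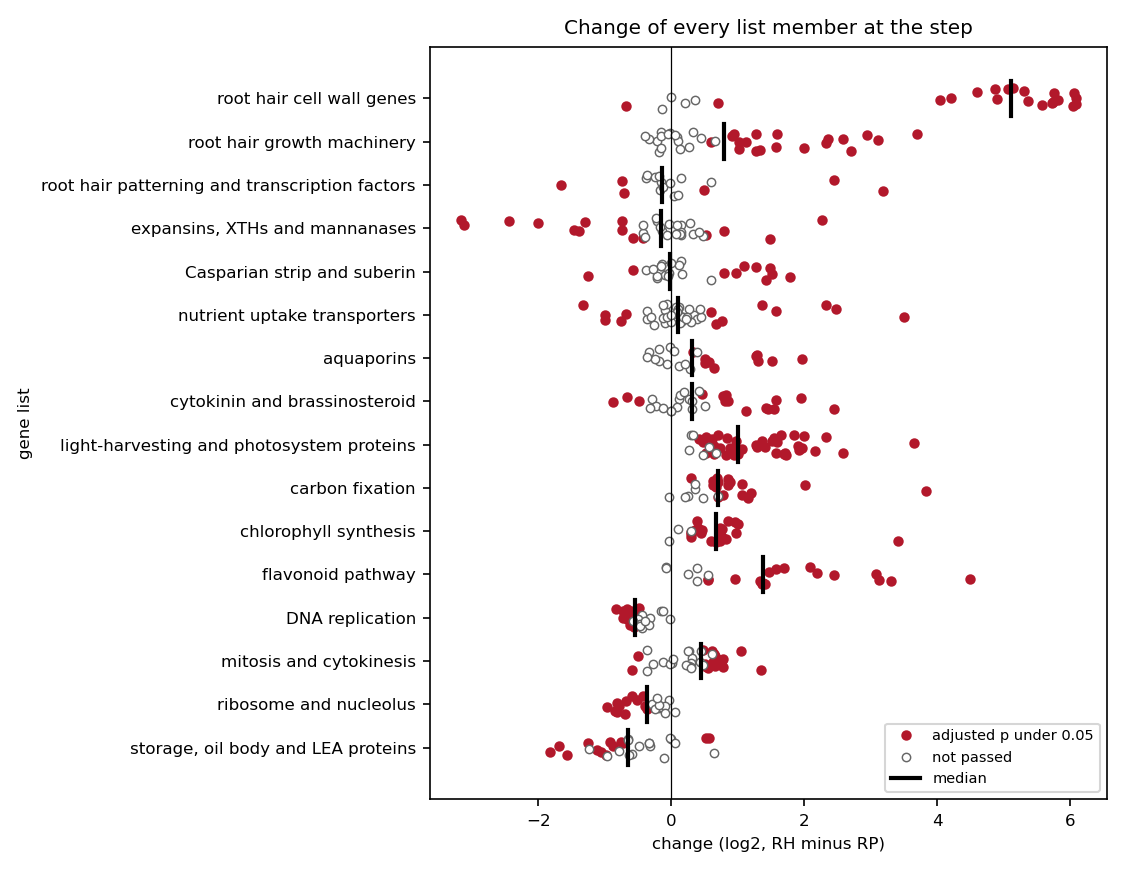
Change from RP to RH (log2, RH minus RP, horizontal axis) of every member of 16 gene lists, 1 list per row. Each point is a gene, filled where the adjusted p was under 0.05, and the vertical bar is the median of the list. The root hair cell wall list stands apart to the right with a median of 5.11, photosynthesis, chlorophyll and flavonoid genes lie mostly above 0, and DNA replication and the ribosome lie mostly below 0.

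Light signalling and clock genes gave 7 rises and 3 falls among 33 (median 0.10), while 11.5% of all genes rose and 11.9% fell. The clock genes PRR5 (AT5G24470), GI (AT1G22770) and ELF4 (AT2G40080), which act in the later part of the day, rose by 1.44 ± 0.23, 1.38 ± 0.23 and 1.04 ± 0.15. LHY (AT1G01060), a morning gene, had 6.69, 6.96 and 6.81 at RH and 8.42, 8.59 and 8.32 at RP, a fall of 1.62 ± 0.20, and CCA1 (AT2G46830), its partner, had a change of -0.35 ± 0.18 (adjusted p = 0.17). The labels do not give the hour at which each stage was collected. HY5 (AT5G11260), the factor that promotes greening in light, had 7.60, 7.76 and 7.95 at RH and 7.95, 7.51 and 7.45 at RP, and its change of 0.14 ± 0.14 did not pass (adjusted p = 0.58).

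Genes of DNA replication fell, while more genes of mitosis rose than fell. Of 30 replication genes 0 rose and 18 fell, none by as much as 2-fold (median -0.55), while 11.5% of all genes rose and 11.9% fell. All 6 genes of the MCM2 to MCM7 helicase were among those that fell. CDT1A (AT2G31270), a licensing factor for replication origins named after its values were seen, had 6.99, 6.90 and 7.05 at RH and 7.69, 7.80 and 7.92 at RP, a fall of 0.83 ± 0.18. Of 37 genes of mitosis and cytokinesis 16 rose and 2 fell (median 0.44), and the median of that list was 0.53 from TR to RP and 0.7 from RH to GC. CYCA1;1 (AT1G44110) had 6.59, 6.52 and 6.34 at RH and 5.14, 5.16 and 5.08 at RP, a rise of 1.35 ± 0.17, and the spindle gene TPX2 (AT1G03780) rose by 1.05 ± 0.14. Stages did not overlap for CDT1A or for CYCA1;1. CYCB1;1 (AT4G37490), a mitotic cyclin, had a change of 0.44 ± 0.19 (adjusted p = 0.11). In the ribosome and nucleolus list 0 of 23 genes rose and 12 fell (median -0.36), with NRPA2 (AT1G29940), for a subunit of RNA polymerase I and named after its values were seen, at -0.97 ± 0.11. The median of this list was -0.27 from TR to RP and -0.35 from RH to GC.

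Genes of stored seed reserves fell more often than they rose. Of 29 genes of storage, oil body and LEA proteins 11 fell, 6 at least 2-fold, while 2 rose and 16 did not pass (median -0.65). Among all genes 11.9% fell, 1.74% at least 2-fold, and 11.5% rose. The median of the list was -0.75 from TR to RP and 0.28 from RH to GC. A lower change at this step than at the one before was called for 0 members. LEA4-5 (AT5G06760), a late embryogenesis abundant protein gene, fell by 1.83 ± 0.33, the albumin gene SESA2 (AT4G27150) by 1.69 ± 0.28 and ECP63 (AT2G36640) by 1.57 ± 0.29. The cruciferin gene CRA1 (AT5G44120) had 5.75, 5.31 and 5.75 at RH and 6.61, 6.28 and 6.51 at RP, a fall of 0.87 ± 0.29 (adjusted p = 0.036). SESA3 (AT4G27160), with 5.0, 5.22 and 4.25 at RH and 6.21, 5.68 and 6.29 at RP, had a change of -1.24 ± 0.49 that did not pass (adjusted p = 0.075), nor did CRU3 (AT4G28520, -0.96 ± 0.37, adjusted p = 0.066). CRA1 did not pass when any 1 of the 6 arrays was left out (changes of -0.96 to -0.72, adjusted p from 0.05 to 0.15), and CRU3 passed without RP replicate 2 (-1.27, adjusted p = 0.027).

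Regulators of seed maturation and dormancy fell in 9 of 24 cases and rose in 2, against 11.9% and 11.5% of all genes. ABI3, a master factor of maturation, had 3.84, 3.95 and 4.2 at RH and 7.38, 7.23 and 7.14 at RP, a fall of 3.25 ± 0.13 (adjusted p = 5.5e-13). ABI4 (AT2G40220), an AP2 factor of abscisic acid responses, had 6.20, 6.38 and 6.3 at RH and 8.44, 8.25 and 8.25 at RP, a fall of 2.02 ± 0.14. In both the RH arrays lay at least a unit below the RP arrays. RGL2 (AT3G03450), the DELLA gene of seed germination, fell by 1.88 ± 0.15 and ABI5 (AT2G36270), a bZIP factor that arrests growth under abscisic acid, by 0.73 ± 0.19, while FUS3 (AT3G26790) rose by 1.14 ± 0.19 to a level of 3.89. The change of ABI3 was -1.45 from TR to RP, and the change at this step less that one was -1.81 ± 0.23 (adjusted p = 3.2e-05).

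**Figure D5:**
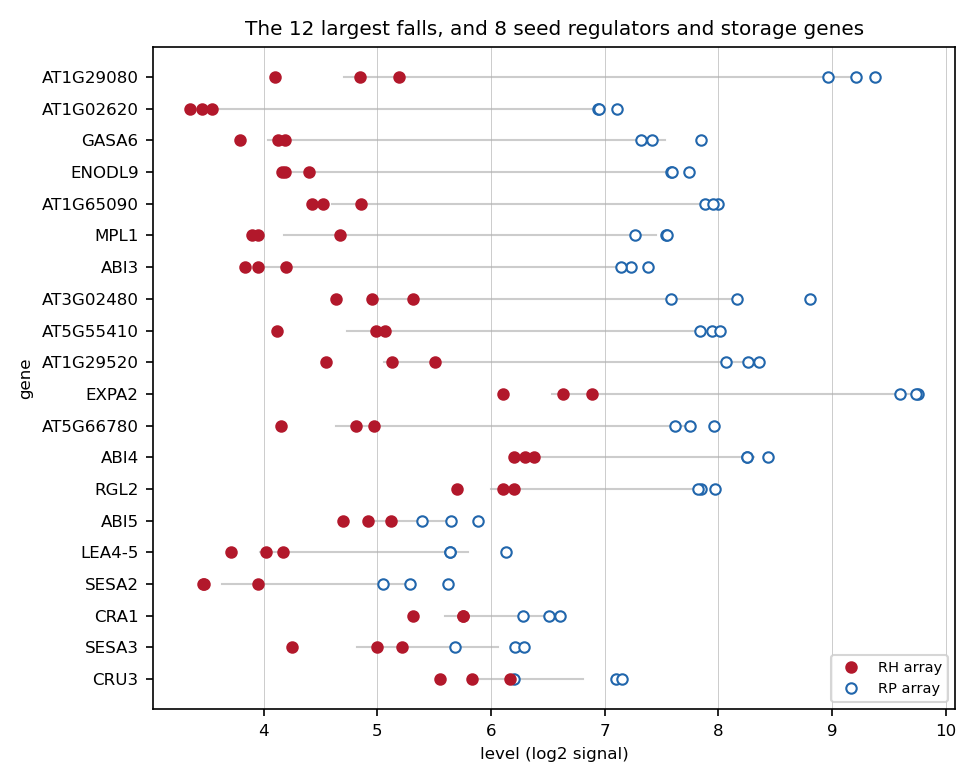
Level on each array (log2 signal, horizontal axis) of the 12 genes with the largest falls and of 8 regulators and storage genes named in the text, 1 gene per row. Filled circles are the 3 RH arrays and open circles the 3 RP arrays. The RH circles lie left of the RP circles in each of the first 12 rows, and in the row of CRU3 1 of the 3 RP circles lies beside the RH circles.

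Of 26 genes of the route by which seed oil is burnt, from lipolysis to gluconeogenesis, 5 rose, 2 fell and 19 did not pass (median -0.08), against 11.5% rising and 11.9% falling over all genes. ICL (AT3G21720), isocitrate lyase of the glyoxylate cycle, had 11.59, 11.64 and 11.63 at RH and 11.63, 11.72 and 11.66 at RP, a change of -0.05 ± 0.09 (adjusted p = 0.77), and PCK1 (AT4G37870), for the carboxykinase that opens gluconeogenesis, had a change of -0.14 ± 0.09 (adjusted p = 0.32). The thiolase gene KAT5 (AT5G48880) was the one member to change 2-fold, with 7.03, 6.91 and 6.68 at RH and 5.11, 4.75 and 4.75 at RP and a rise of 2.0 ± 0.15. ACX3 (AT1G06290, -0.35 ± 0.14) was among those that did not pass. Of 25 heat shock and low oxygen genes 3 rose and 1 fell: HSP70 (AT3G12580) fell by 1.7 ± 0.25.

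Markers of the tissues around the embryo were measured too, since whole seeds were sampled. Of 14 endosperm markers 11 lay under 3.47 at both stages, among them the defining genes RGE1 (AT1G49770, ZOU) and NCED6 (AT3G24220). EPR1 (AT2G27380), an extensin-like gene of the endosperm in germinating seeds, had 8.41, 8.34 and 8.54 at RH and 9.46, 9.26 and 9.23 at RP, a fall of 0.88 ± 0.19 (adjusted p = 0.0015), and the sucrose carrier gene SUC5 (AT1G71890) fell by 1.15 ± 0.14. The EPR1 stages did not overlap. Of 18 seed coat markers 9 lay under 3.47 at both stages, and the defining genes BAN, TT10 (AT5G48100) and TT12 (AT3G59030) were at 2.72, 3.22 and 3.36 at RH and 2.80, 2.97 and 3.47 at RP. In that list 1 rose and 1 fell. The signals of the 14 endosperm markers, summed on the linear scale, ran from 460 to 499 at RH and from 737 to 847 at RP, but most of that was EPR1. The other 13 summed to between 125 and 135 at RH and between 138 and 143 at RP. The median change of the 14 was 0.01, but 11 of them lay near the floor. Markers near the floor at both stages, the defining genes named here included, cannot show how much of a tissue remained. The sums of the 18 seed coat markers ran from 723 to 788 at RH and from 849 to 865 at RP, while their median change was 0.01. With 9 of the 18 near the floor, these sums rest mostly on the brighter members. EPR1 and SUC5 moved in the same direction as the storage and maturation genes, and their tissue's part in those falls was not tested. Among 32 genes of cotyledon and shoot 1 rose and 6 fell, against 11.5% and 11.9% of all genes. The largest change there was in the wax synthesis gene CER1 (AT1G02205), which fell by 1.28 ± 0.19. The glucosinolate and triterpene list had 8 of 31 genes up and 2 down, led by the thalianol pathway genes CYP705A5 (AT5G47990, 2.2 ± 0.18) and CYP708A2 (AT5G48000, 1.33 ± 0.17).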

How the data were processed

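The values deposited by the authors are on the log2 scale and were made with RMA, per the submitters' processing notes. The array platform, the software version, the probe set annotation and the genome build are not stated there. Of 35986 probe sets on 21 arrays, 215 had values identical on every array to those of a probe set of another locus and were dropped. This left 192 loci without a value. Averaging the others by locus gave 27789 genes. The RefSeq table of TAIR10.1 listed 27175 of them, 10537 with a symbol. Loci stand in for missing symbols, synonyms are in brackets, and no sequences or coordinates were used here.

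Limma 3.58.1 (R 4.3.3) fitted stage means to all 21 arrays, leaving 14 residual degrees of freedom. The contrasts were RH minus RP, the neighbouring steps, and the differences between these steps, each 2-sided with Benjamini-Hochberg adjustment over all 27789 genes. The fit was tested on simulated data. Array number limits the precision.

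Described were 32 gene lists (881 of 896 entries measured under a matching name) and families of at least 20 members found by name. Named were the 12 largest rises and falls, in each list up to 3 rises, 3 falls and 2 genes that did not pass, up to 2 rises and 2 falls of a family, any member of the root hair lists and a few landmark genes. Genes outside this rule are marked as named after their values were seen. Not every gene that the rule allows is reported here. The comparison, the lists and the named genes were chosen with earlier results of these data known.

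Replicate numbers were not used to pair the arrays in the main fit. The alternatives were other scalings, a filter that kept genes over the 30th percentile on at least 3 arrays, another variance prior, array weights, another probe set rule, only the 6 arrays, a replicate term, other thresholds and omission of each array.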

Additional observations from a re-analysis of the deposited data

How the results depend on the processing

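The counts of genes at least 2-fold higher or lower at RH, 1014 and 483, stayed within 1.5 times under every scaling, filter, prior, weighting, probe set rule and sample choice that was run. They moved with the threshold alone: at the adjusted p without a fold threshold they were 3185 and 3304, and under limma's treat, which tests for a change beyond 2-fold, 378 and 134. Without 1 array the rises ran from 989 to 1052, the falls from 448 to 516, and the root hair genes at least 2-fold higher, 36 of 78, from 34 to 37. For these root hair genes the counts with a higher change than at the step before (30) and after (35) ran from 28 to 31 and from 31 to 37, under alternatives chosen after the data were seen. Deviations of same-numbered RH and RP arrays from their stage means had correlations across genes of 0.0751, 0.113 and -0.14. The highest correlations of these RH arrays with an RP array of another number were 0.179, -0.0554 and 0.176. With 3 arrays a stage such values cannot exclude pairs, and the main fit used none. With a replicate block 1013 genes were at least 2-fold higher, 483 lower and 36 root hair genes higher. Of the named genes LRL2 lost its call in that fit (0.49, adjusted p = 0.06) while ABF2 and RSL2 gained one. Of 195 named genes 165 kept their side of the threshold in all 15 refits that gave them a value, none changed direction with a call, 9 lost a call somewhere and 21 gained one. Beyond the losses without an array given above, BST1 (0.80, adjusted p = 0.069), LRL2 (0.52, adjusted p = 0.067), RHS8 (0.61, adjusted p = 0.081) and RNS3 (0.96, adjusted p = 0.066) did not pass after a further quantile normalization, and CRA1 (-0.87, adjusted p = 0.066) not with a trended and robust prior. LRL2 also missed the threshold with median-centred arrays (adjusted p = 0.061), with arrays centred on reference genes (0.057) and with the probe set of the highest mean (0.05). List medians moved beyond the spread between arrays only when an array was left out: in the root meristem and root cap list to -0.02 without RH replicate 1 and to -0.06 without RP replicate 2, in the ethylene and jasmonate list to 0.12 without RH replicate 3, and in the flavonoid list to 1.18 without RP replicate 3. The cause of these shifts was not tested. Signals near 3.47 or below limit how far a fall can be followed and how large a rise can be read.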

Other observations

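Gene families, found by name in the reference table and therefore incomplete, add to the lists. Over all genes 11.5% rose and 11.9% fell, 3.65% and 1.74% at least 2-fold. Of 137 MYB factors 27 rose and 10 fell, led by MYB50 (AT1G57560, 2.36 ± 0.22) and PAP1 (AT1G56650, 2.08 ± 0.23), the activator of anthocyanin synthesis. Of 72 WRKY factors 12 rose and 2 fell, with WRKY49 (AT5G43290) at 2.2 ± 0.17. NAC factors rose in 8 and fell in 12 of 97 cases, at least 2-fold in 7 and 2, and NAC3 (AT3G15500) had 6.57, 6.5 and 6.44 at RH and 4.05, 3.72 and 4.00 at RP. Of 23 genes with a kinesin name, the kinesin light chain-related KLCR1, KLCR2 and KLCR3 among them, 8 rose and 1 fell. The one at least 2-fold higher was MRH2 (AT3G54870, 1.93 ± 0.12), known for its part in root hair form.

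Arabinogalactan proteins rose and fell in equal number (11 and 11 of 49), with FLA6 (AT2G20520) at 5.44 ± 0.20 and AGP10 (AT4G09030) at -1.58 ± 0.11. The cellulase family members GH9B15 (AT4G23560) and GH9C1 (AT1G48930) rose by 3.91 ± 0.18 and 3.69 ± 0.18. Of 232 cytochrome P450 genes 42 rose and 26 fell, CYP82F1 (AT2G25160) by 3.46 ± 0.20 and CYP96A15 (AT1G57750), of wax synthesis, by -2.21 ± 0.20. SAUR genes, small genes induced by auxin, rose in 9 and fell in 11 of 79 cases, at least 2-fold in 3 and 8. Among amino acid exporters of the UMAMIT group UMAMIT25 (AT1G09380) had a change of -3.02 ± 0.29 and UMAMIT17 (AT4G08300) one of 2.18 ± 0.22. The defensin gene PDF2.5 (AT5G63660) rose by 3.85 ± 0.19, while 84 of 88 defensin-like genes did not pass and 78 lay under 3.47 at both stages.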
